A study of Homo sapiens with 12 samples.

Results

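Gene expression was compared between HEK293 cells given the Mediator kinase inhibitor Senexin B and cells given vehicle, with no cytokine, in the 6 of 12 RNA sequencing libraries of the study that received no TNFα. HEK293 is an established human embryonic kidney line, carried here in high-glucose medium with serum. Cells of the SnxB group had 1 µM Senexin B for 3 h and cells of the DMSO group 0.1% DMSO for 3 h, with 3 biological replicates in each. The other 6 libraries are used only for comparison: cells of the TNF_SnxB group had Senexin B for 1 h and then 10 ng/mL TNFα with it for 2 h, and cells of the TNF group had DMSO and then TNFα for the same times. The groups were chosen by the labels, and all 14293 genes that passed a low-count filter, of 56634 in the table, were tested. The design has 1 cell line, 1 dose and 1 time, so that a primary effect of the inhibitor, a secondary effect 3 h later and an effect of the compound on other proteins cannot be told apart.

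Mediator is the large complex that passes signals from DNA-bound transcription factors to RNA polymerase II. CDK8 and its paralog CDK19, with cyclin C, MED12 and MED13, form a kinase module that binds Mediator reversibly and phosphorylates transcription factors and parts of the transcription machinery. The module is known both to aid and to hold back transcription, most often of genes that answer to signals, such as the targets of serum, Wnt, Notch, TGF-beta and stress pathways. Senexin B binds the ATP pocket of CDK8 and CDK19.

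The SnxB libraries held 8705277 to 10465100 counts and the DMSO libraries 9967328 to 11714431, and values below are CPM (counts scaled to library size, with TMM factors). The detection floor, set at 3 counts, was 0.256 to 0.345 CPM per library and covers counting error only. Replicates lay close together, with a biological coefficient of variation of 1.96% over the 6 libraries, so that small differences could pass the test. Markers of the HEK293 line (10 genes, among them NEFL, VIM, LHX1 and PAX2) were detected in every library and summed to 929 to 981 CPM in SnxB libraries and 989 to 1030 CPM in DMSO libraries. NEFL, VIM and KRT18 of these were lower, with log2 fold changes of -0.37, -0.12 and -0.16. The part of this shift in other results was not tested. The VIM call was lost without SnxB library 1 and the KRT18 call without DMSO library 1 or 2 or SnxB library 1 or 3. Both were lost where all 12 libraries shared 1 estimate of spread, and that of KRT18 also in DESeq2 and with library totals alone. Leukocyte and erythroid markers (9 genes) summed to 1.05 to 1.72 CPM in SnxB libraries and 1.0 to 1.2 CPM in DMSO libraries, and endothelial and fibroblast markers (9 genes) to 17.9 to 19.9 and 16.2 to 17.5 CPM, nearly all from COL1A1. CD3E, HBB, CDH5 and DCN had 0 counts in all 6. The 13 mitochondrially encoded genes are listed at 0 in every library and were not analysed here. These are bulk samples, in which fewer cells of a kind and less RNA per cell cannot be told apart.

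With TMM scaling, though not with library totals alone, Senexin B lowered more genes than it raised, and MYC, ARC, CXCR4 and the inducible HSP70 genes were among the largest losses. Of the 14293 genes, 553 (3.87%) were lower and 211 (1.48%) higher in SnxB than in DMSO libraries, 764 (5.35%) in all, at an adjusted p under 0.05 in edgeR's quasi-likelihood test with Benjamini-Hochberg adjustment. SnxB and DMSO libraries had no overlap for 531 of the 553 lower and for 208 of the 211 higher genes, beside 11.2% and 9.46% of all tested genes that did not overlap in that direction. Counts of called members in the lists below are to be read beside 3.87% lower and 1.48% higher of all tested genes. Most effects were small. The median log2 fold change was -0.195 among the lower genes and 0.195 among the higher, against 0.00195 over all tested genes. Among the lower genes 62 passed 1.5-fold and 23 passed 2-fold, and among the higher genes 6 and 3. A test against a fold of 1.2 called 71 lower genes and 1 higher gene, AC144652.1. The balance rests on the scaling: with library totals alone the median of all genes moved to 0.0301, and 362 genes were lower and 429 higher (54.2% higher, against 27.6% with TMM).

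**Figure D1:**
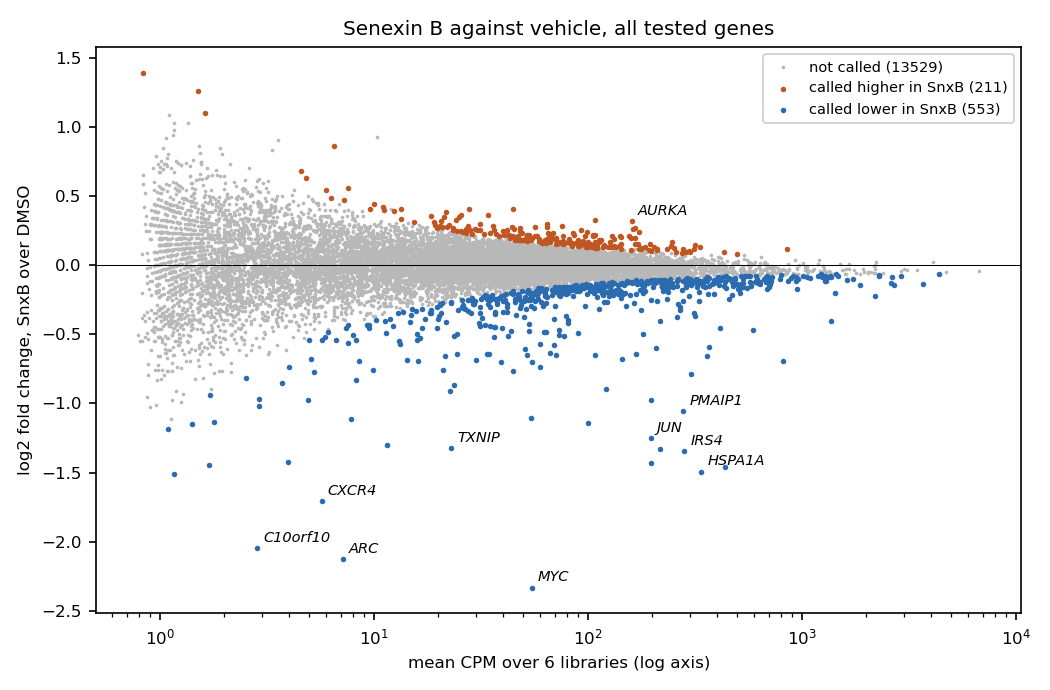
Log2 fold change of SnxB over DMSO (vertical axis) against mean CPM over the 6 libraries (horizontal axis, log scale) for 14293 tested genes, with 211 called higher, 553 called lower and 13529 not called. Of the called genes past 2-fold, 23 lie below and 3 above 0, beside 3 uncalled genes past 2-fold on each side, and the 6 above 0 average at most 1.63 CPM.

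The promoters of 6 genes from 5 of the classes described next are shown because each carries a motif known for the gene or its class. They are the 250 bases before the RefSeq start (GRCh38.p14), 5′ to 3′ on the strand of the gene, in lower case with the motif in capitals. HSPA1A (chr6:31815293-31815542, plus strand) has a heat shock element, GAANNTTC, 106 bases before the start, and a TATA box, TATAAA. JUN (chr1:58784048-58784297, minus strand) has the AP-1-like site TGACATCA 67 bases before the start. That site lay in 12.5% of the 16 promoters available for the immediate-early list and 1.27% of all, and the AP-1 site TGANTCA in 0% and 3.54%. TXNIP (chr1:145996580-145996829, minus strand) has a carbohydrate response element, CACGNGNNNNNCNCGNG, 88 bases before the start. HES1 (chr3:194135898-194136147, plus strand) has a pair of RBPJ sites, TGGGAA, 84 and 70 bases before the start. At least 1 such site lay in 57.1% of the 7 promoters available for the Notch list and 19.2% of all. CDC20 (chr1:43358731-43358980, plus strand) and KIF23 (chr15:69414099-69414348, plus strand) have the cell cycle homology region TTTGAA and CCAAT boxes, the pair of motifs of many late cell cycle promoters.
HSPA1A: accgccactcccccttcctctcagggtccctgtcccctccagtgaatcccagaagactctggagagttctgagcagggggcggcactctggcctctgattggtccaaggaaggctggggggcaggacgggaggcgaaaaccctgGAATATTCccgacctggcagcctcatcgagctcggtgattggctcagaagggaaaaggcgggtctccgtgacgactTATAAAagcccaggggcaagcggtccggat
JUN: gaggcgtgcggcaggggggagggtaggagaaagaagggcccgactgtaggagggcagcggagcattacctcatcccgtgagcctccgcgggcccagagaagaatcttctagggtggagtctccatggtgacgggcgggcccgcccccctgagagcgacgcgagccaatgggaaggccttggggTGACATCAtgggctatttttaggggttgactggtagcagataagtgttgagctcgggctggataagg
TXNIP: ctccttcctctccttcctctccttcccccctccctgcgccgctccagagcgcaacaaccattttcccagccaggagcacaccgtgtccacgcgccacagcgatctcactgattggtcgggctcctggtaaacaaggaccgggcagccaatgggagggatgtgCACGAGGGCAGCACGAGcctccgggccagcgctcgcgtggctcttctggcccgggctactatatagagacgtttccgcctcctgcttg
HES1: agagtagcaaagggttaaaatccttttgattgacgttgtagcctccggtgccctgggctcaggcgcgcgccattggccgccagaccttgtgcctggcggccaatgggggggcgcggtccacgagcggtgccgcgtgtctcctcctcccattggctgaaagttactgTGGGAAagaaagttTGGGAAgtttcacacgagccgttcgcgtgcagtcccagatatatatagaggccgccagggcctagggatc
CDC20: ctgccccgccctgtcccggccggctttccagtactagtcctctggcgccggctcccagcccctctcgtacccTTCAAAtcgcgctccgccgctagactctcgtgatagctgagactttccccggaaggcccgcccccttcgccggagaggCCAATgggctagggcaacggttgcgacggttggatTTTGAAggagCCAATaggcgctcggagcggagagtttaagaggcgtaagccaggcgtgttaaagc
KIF23: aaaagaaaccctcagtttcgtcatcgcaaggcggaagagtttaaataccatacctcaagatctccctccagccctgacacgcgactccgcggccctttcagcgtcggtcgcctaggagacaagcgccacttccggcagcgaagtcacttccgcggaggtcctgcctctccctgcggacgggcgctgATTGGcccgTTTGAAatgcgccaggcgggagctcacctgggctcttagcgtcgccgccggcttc

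The Mediator kinase module itself moved little. CDK8, a target of the compound, had 37.3, 37.2 and 39.9 CPM in SnxB libraries, against 37.7, 39.0 and 40.5 CPM in DMSO libraries, and its paralog CDK19 had 26.3, 29.1 and 26.4 CPM in SnxB libraries, against 27.5, 29.1 and 26.5 CPM in DMSO libraries. Neither passed the test, with log2 fold changes of -0.036 and -0.014 and groups that overlapped. Senexin B acts on the kinase and not on its RNA, so these levels do not check the treatment. Of the 7 tested module genes 1 was called, MED13, which holds the module on Mediator: it had 181, 179 and 184 CPM in SnxB libraries, against 157, 165 and 167 CPM in DMSO libraries, a log2 fold change of 0.15 ± 0.035 (SE, n = 3 each; edgeR adjusted p = 0.00141). The call of MED13 was lost where all 12 libraries shared 1 estimate of spread. Its paralog MED13L had a log2 fold change of 0.14 (edgeR adjusted p = 0.0663) and was called higher with library totals alone or without DMSO library 3, while CCNC, MED12 and MED12L had 0.071, 0.051 and 0.11. Among 26 core Mediator subunits 0 were called by edgeR. An unadjusted p under 0.05 was found for 6 of them, beside 2407 of all 14293 tested genes. With the GC and length correction 1 subunit was called lower. HEXIM1, which holds the elongation kinase CDK9 inactive, was the only 1 of 19 tested transcription kinases and their regulators that was called: it had 63.1, 57.9 and 58.8 CPM in SnxB libraries, against 79.4, 81.7 and 74.2 CPM in DMSO libraries, a log2 fold change of -0.39 ± 0.050 (SE, n = 3 each; edgeR adjusted p = 4.04e-09). The called share of that list was 5.26%, near the 5.35% of all tested genes. A second gene of that list was called lower without DMSO library 3, with 10 libraries, with no low-count filter or with the GC and length correction.

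MYC, a transcription factor that drives growth and is short-lived as RNA and protein, fell the most of all called genes. It had 17.8, 17.5 and 19.0 CPM in SnxB libraries, against 88.1, 95.7 and 89.8 CPM in DMSO libraries. Every SnxB library was far under every DMSO library, at 19.8% of the DMSO level in the fit, with a log2 fold change of -2.33 ± 0.063 (SE, n = 3 each; edgeR adjusted p = 1.05e-49). MYC lies at chr8:127735434-127741434 (GENCODE 29, GRCh38). Of 12 tested genes of the MYC, MAX and MXD network, 2 were lower and 0 higher (16.7% called, beside 5.35% of all tested genes). The other besides MYC was MNT, a repressor that pairs with MAX, with -0.46. MAX, MXI1 and MLX did not pass the test, at -0.081, -0.045 and -0.0060.

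Ribosome biogenesis genes, a class that MYC is known to drive, were lower in part and by small amounts. Of 33 tested members 14 (42.4%) were lower and 0 higher, with a median log2 fold change of -0.0914 over the list. DKC1, which modifies ribosomal RNA, had 315, 314 and 302 CPM in SnxB libraries, against 355, 347 and 364 CPM in DMSO libraries, a log2 fold change of -0.20 ± 0.028 (SE, n = 3 each; edgeR adjusted p = 1.27e-07). No SnxB library reached the lowest DMSO library. NCL and NPM1, abundant nucleolar proteins, fell by less, with -0.14 and -0.13, and DDX21, NOP58 and NOLC1 had -0.16, -0.19 and -0.12. FBL, NOP2 and UBTF did not pass the test, at -0.077, 0.00027 and 0.019. Where all 12 libraries shared the estimate of spread, 7 were lower.

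Immediate-early genes, which are transcribed soon after a stimulus, were lower in part. Of 22 tested members of the AP-1, EGR and NR4A list 11 (50%) were lower and 0 higher, with a median of -0.26. ARC, a cytoskeletal protein best known from neurons, had 2.28, 2.37 and 3.28 CPM in SnxB libraries, against 10.6, 12.8 and 11.6 CPM in DMSO libraries. JUN, an AP-1 subunit whose promoter site is capitalised above, had 114, 120.2 and 114 CPM in SnxB libraries, against 280.1, 287 and 263 CPM in DMSO libraries. In both genes the SnxB libraries were far under the DMSO libraries, at 22.9% for ARC and 42.0% for JUN, with a log2 fold change of -2.13 ± 0.16 (SE, n = 3 each; edgeR adjusted p = 2.94e-19) for ARC and a log2 fold change of -1.25 ± 0.035 (SE, n = 3 each; edgeR adjusted p = 2.32e-48) for JUN. EGR1, a zinc finger factor induced by serum, had 6.50, 5.88 and 5.51 CPM in SnxB libraries, against 10.5, 10.6 and 10.6 CPM in DMSO libraries, a log2 fold change of -0.83 ± 0.13 (SE, n = 3 each; edgeR adjusted p = 2.11e-06). ATF3, a stress-induced AP-1 partner, and JUND, the constitutive JUN paralog, had -0.70 (edgeR adjusted p = 4.19e-14) and -0.52 (edgeR adjusted p = 2.89e-14), and IER3, a survival factor, -0.69 (edgeR adjusted p = 0.00013). FOS and JUNB were also lower, at -0.94 and -0.43. The other members went no clear way: FOSL1, NR4A1 and SRF had 0.16, 0.069 and 0.076, without a call. In DESeq2 4 of the list were lower while 5 of the 11 (ARC, EGR1, FOS, IER3 and JUNB) were given no adjusted p, and with the spread of all 12 libraries 7. Leaving out DMSO library 2 gave 1 member called higher.

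**Figure D2:**
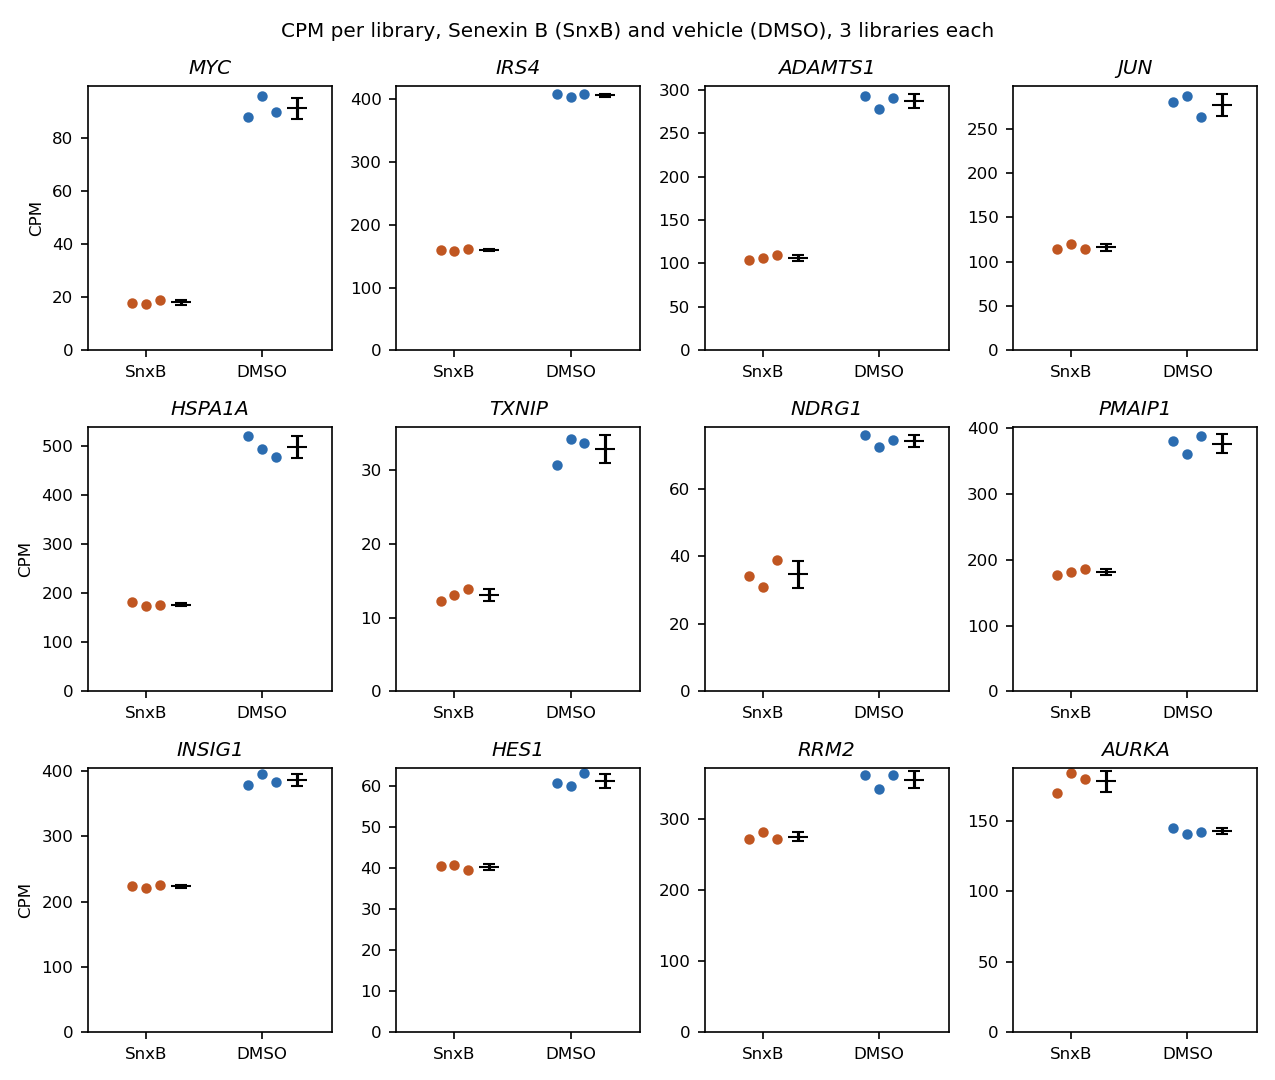
CPM (vertical axes, from 0) of 12 genes in each library, SnxB in orange left of DMSO in blue; the bar is the mean and its SD over 3 libraries. Groups are apart in every panel: MYC averaged 18.1 CPM in SnxB and 91.2 CPM in DMSO libraries, and AURKA is the 1 gene shown that was higher in SnxB.

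Genes that damp signalling or growth, and some outputs of ERK, were lower in part. Of 21 tested genes of ERK feedback and output 6, the output CCND1 among them, were lower and 0 higher. With library totals alone or without DMSO library 3 or SnxB library 1, 1 was higher. DUSP1, a phosphatase that switches off MAP kinases, had 25.5, 27.3 and 27.6 CPM in SnxB libraries, against 43.5, 41.9 and 40.5 CPM in DMSO libraries, a log2 fold change of -0.64 ± 0.068 (SE, n = 3 each; edgeR adjusted p = 2.75e-12). CCND1, the D cyclin that ERK signalling induces, had 50.1, 54.1 and 51.8 CPM in SnxB libraries, against 71.8, 74.8 and 71.5 CPM in DMSO libraries, a log2 fold change of -0.48 ± 0.052 (SE, n = 3 each; edgeR adjusted p = 4.44e-12). The groups of neither gene overlapped. DUSP2, DUSP7, DUSP14 and SPRY1 were lower too, with log2 fold changes of -0.44, -0.34, -0.21 and -0.45, while the ERK outputs DUSP6, ETV4 and SPRY4 had 0.40, 0.40 and 1.09 and did not pass the test. In the family of GADD45, BTG and TOB, which slow proliferation, 4 of 7 tested genes were lower and 0 higher: GADD45B had -0.69, TOB1 -0.45, BTG2 -0.45 and BTG1 -0.27. KLF10 and KLF9, Kruppel-like repressors induced by TGF-beta and by glucocorticoids, were the 2 of 13 tested family members called, with -0.51 and -0.38 (4 with the GC and length correction). ZFP36L2, which marks mRNAs with AU-rich elements for decay, was the 1 of 9 tested decay factors called, at -0.29. The called shares were 28.6% for the ERK list and 57.1% for GADD45, BTG and TOB. They were 15.4% for the Kruppel-like and 11.1% for the decay factors, beside 5.35% of all tested genes. DESeq2 called 2 of the GADD45, BTG and TOB genes and gave GADD45B no adjusted p. The calls of DUSP14 and SPRY1 were lost without SnxB library 2, and that of SPRY1 also without DMSO library 3. That of BTG1 was lost without DMSO library 2 or SnxB library 3 and in DESeq2.

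Developmental signalling targets were lower in part. HES1, the repressor that Notch induces directly and whose promoter is shown above, had 40.6, 40.9 and 39.6 CPM in SnxB libraries, against 60.8, 60.03 and 63.3 CPM in DMSO libraries, a log2 fold change of -0.61 ± 0.057 (SE, n = 3 each; edgeR adjusted p = 1.14e-14). NRARP, a Notch feedback inhibitor, had 28.2, 23.4 and 27.2 CPM in SnxB libraries, against 38.1, 46.1 and 38.9 CPM in DMSO libraries, and HEY1 had 38.9, 40.1 and 31.3 CPM in SnxB libraries, against 53.3, 46.0 and 54.0 CPM in DMSO libraries. All 3 were clearly apart between groups, with -0.64 for NRARP and -0.48 for HEY1, and they were the 3 of 8 tested Notch targets called lower in the fit (0 higher, or 1 without DMSO library 2). The inhibitors of differentiation ID4, ID2 and ID3, which BMP signals induce, were lower too. ID4 had 89.4, 82.5 and 82.3 CPM in SnxB libraries, against 156, 161 and 155 CPM in DMSO libraries, a log2 fold change of -0.89 ± 0.041 (SE, n = 3 each; edgeR adjusted p = 2.35e-33). ID2 had -0.65 and ID3 -0.14, and ID1 -0.24 without a call. The ID3 call was lost with library totals alone, in DESeq2 and with the spread of all 12 libraries. It was also lost without DMSO library 1 or 2 or SnxB library 1 or 2. With SKI, TGIF1 and TGIF2, repressors of SMAD signalling at -0.15, -0.37 and -0.22, 6 of 16 tested genes of the ID, BMP and TGF-beta list were lower and 0 higher (1 higher with library totals alone, with 10 libraries, or without DMSO library 2 or SnxB library 2). The TGIF1 call was lost without SnxB library 3 and the TGIF2 call without SnxB library 2 and in DESeq2. SMAD6, SMAD7 and PMEPA1, the usual feedback targets of the pathway, had 0.024, 0.044 and -0.0043 and did not pass the test.

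YAP and Wnt targets went both ways. Among 14 tested YAP-TEAD targets 3 were lower and 2 higher. CTGF, a secreted matrix protein, had 10.8, 11.7 and 10.4 CPM in SnxB libraries, against 18.2, 17.1 and 17.7 CPM in DMSO libraries, a log2 fold change of -0.69 ± 0.10 (SE, n = 3 each; edgeR adjusted p = 2.43e-07), and the YAP-binding protein AMOT fell by 0.47 on the log2 scale. ANKRD1 had -0.96, a call that was lost without DMSO library 1 or SnxB library 2. AMOTL2 and PTPN14, which hold YAP outside the nucleus, were higher, at 0.25 and 0.17, and CYR61 had -0.078 without a call. DESeq2 called 1 lower and 1 higher and gave ANKRD1 and CTGF no adjusted p. The PTPN14 call was lost in DESeq2 and with the spread of all 12 libraries. Among 16 tested Wnt targets 2 were lower and 1 higher: SOX4, a developmental transcription factor, had 114, 110.01 and 110.4 CPM in SnxB libraries, against 184, 179 and 173 CPM in DMSO libraries, a log2 fold change of -0.68 ± 0.037 (SE, n = 3 each; edgeR adjusted p = 1.19e-27). LGR5, a receptor that amplifies Wnt signals, had -0.34, and RNF43, a ligase that removes Wnt receptors, had 0.21. RNF43 was not called without DMSO library 2 or 3 or SnxB library 1 or 2. It was also not called in DESeq2, with no low-count filter or with the spread of all 12 libraries. AXIN2, the standard feedback target, had -0.033, without a call.

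Cell surface and secreted proteins included several of the strongest losses. Of 27 tested members of a list of receptors, ligands and proteases 9 were lower and 1 higher. CXCR4, a chemokine receptor, had 2.17, 2.75 and 3.07 CPM in SnxB libraries, against 8.87, 7.91 and 9.41 CPM in DMSO libraries, a log2 fold change of -1.71 ± 0.17 (SE, n = 3 each; edgeR adjusted p = 2.42e-13). ADAMTS1, a secreted protease of the matrix, had 104, 106 and 110.2 CPM in SnxB libraries, against 292, 278 and 289.9 CPM in DMSO libraries, a log2 fold change of -1.43 ± 0.035 (SE, n = 3 each; edgeR adjusted p = 5.02e-53). Each SnxB library was well under each DMSO library. RGS16, which damps G protein signals, had -0.91, BMP2 -0.66, STC2, a secreted glycoprotein, -0.57, and the ephrin EFNB2 -0.40; SHISA2 had -1.45 at under 3 CPM in every library. FLRT3, an adhesion protein, was the 1 higher, with 8.44, 9.77 and 8.69 CPM in SnxB libraries, against 5.22, 7.00 and 6.22 CPM in DMSO libraries, a log2 fold change of 0.56 ± 0.14 (SE, n = 3 each; edgeR adjusted p = 0.00493), and was not called without DMSO library 1 or SnxB library 2. IRS4, an adaptor of the insulin receptor on the X chromosome (chrX:108732482-108736409), had 160.4, 157 and 161 CPM in SnxB libraries, against 407, 403 and 407 CPM in DMSO libraries, a log2 fold change of -1.35 ± 0.030 (SE, n = 3 each; edgeR adjusted p = 7.69e-56). The 3 libraries of each group lay within a few CPM of each other for IRS4. Transcripts RP6-24A23.6, RP6-24A23.7 and RP6-24A23.8, which share a clone name and have no entry in the annotation used, were lower, with log2 fold changes of -1.42, -1.33 and -1.11. C10orf10 (DEPP1 in RefSeq), FAM84A and C11orf96 completed the largest falls, at -2.05, -1.30 and -1.51, the last at under 3 CPM and not called without DMSO library 2 or SnxB library 1 or 3.

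Heat shock protein genes were lower in part, led by the inducible HSP70 genes. HSPA1A had 182, 175 and 176 CPM in SnxB libraries, against 522, 495 and 479 CPM in DMSO libraries, a log2 fold change of -1.49 ± 0.030 (SE, n = 3 each; edgeR adjusted p = 4.73e-59), and its near-identical copy HSPA1B had 241, 229.6 and 229 CPM in SnxB libraries, against 658, 648 and 613 CPM in DMSO libraries, a log2 fold change of -1.46 ± 0.028 (SE, n = 3 each; edgeR adjusted p = 1.49e-60). Reads of the 2 copies can be split between them by the authors' counting, so that the single values are uncertain. HSPA8, the constitutive HSP70, fell in the same libraries, with 1175 ± 16.5 CPM in SnxB libraries and 1552 ± 18.2 CPM in DMSO libraries (SD, n = 3 each), and DNAJA1, an HSP40 partner, HSP90AA1 and HSPD1 had -0.20, -0.14 and -0.11. In all 10 of 22 tested members (45.5%) were lower and 0 higher (1 higher with library totals alone, 6 lower with the spread of all 12 libraries). DNAJB1 and BAG3, other genes of the heat shock factor HSF1, had 0.017 and 0.16 and did not pass the test. The heat shock element lay in 38.1% of the 21 list promoters matched, 3.85% of all 10677 matched promoters, 7.5% of the promoters of lower genes and 4.02% of those of higher genes.

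Genes of glucose use and of low oxygen were lower in part. NDRG1, induced by hypoxia, had 34.2, 30.9 and 38.9 CPM in SnxB libraries, against 76.0, 72.5 and 74.5 CPM in DMSO libraries, a log2 fold change of -1.11 ± 0.059 (SE, n = 3 each; edgeR adjusted p = 1.15e-28), and DDIT4, an mTOR inhibitor induced by hypoxia and stress, had 44.1, 45.8 and 45.6 CPM in SnxB libraries, against 82.7, 70.3 and 72.1 CPM in DMSO libraries, a log2 fold change of -0.73 ± 0.056 (SE, n = 3 each; edgeR adjusted p = 2.35e-19). HK2, the first enzyme of glycolysis in growing cells, had -0.42, the glucose carrier SLC2A1 -0.22, LDHA -0.17 and PGK1 -0.13. Of 33 tested members 9 (27.3%) were lower and 0 higher (1 higher with library totals alone; 5 lower with the spread of all 12 libraries and 14 with the GC and length correction). VEGFA, ADM and EGLN3, further hypoxia targets, had -0.25, -0.14 and -0.24 without a call. TXNIP, an arrestin that restrains glucose uptake and that glucose induces through the element capitalised above, had 12.2, 13.1 and 13.9 CPM in SnxB libraries, against 30.7, 34.2 and 33.6 CPM in DMSO libraries, a log2 fold change of -1.32 ± 0.085 (SE, n = 3 each; edgeR adjusted p = 2.06e-23). Its paralog ARRDC4, named after its value was seen, had 16.8, 18.1 and 15.4 CPM in SnxB libraries, against 32.1, 29.5 and 29.97 CPM in DMSO libraries, a log2 fold change of -0.86 ± 0.082 (SE, n = 3 each; edgeR adjusted p = 1.99e-14). These 2 genes fell together, to 39.9% and 55.0% of the DMSO level.

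Sterol synthesis split within the pathway. INSIG1, the protein that holds the sterol sensor in the endoplasmic reticulum, had 225, 221 and 225 CPM in SnxB libraries, against 379, 396 and 384 CPM in DMSO libraries, a log2 fold change of -0.79 ± 0.029 (SE, n = 3 each; edgeR adjusted p = 8.54e-40). HMGCS1, IDI1 and SQLE, enzymes of the mevalonate and squalene steps, were lower as well, with -0.66 (edgeR adjusted p = 6.59e-36), -0.59 (edgeR adjusted p = 2.41e-32) and -0.38 (edgeR adjusted p = 9.96e-18). MVD, another mevalonate enzyme, went the other way, with 84.7, 81.3 and 84.4 CPM in SnxB libraries, against 71.6, 72.1 and 61.6 CPM in DMSO libraries, a log2 fold change of 0.29 ± 0.049 (SE, n = 3 each; edgeR adjusted p = 1.06e-05). Of 32 tested members of the list 5 were lower and 4 higher (2 higher without DMSO library 2 or 3, in DESeq2 or with the spread of all 12 libraries). Its median was 0.00747, and fatty acid genes FASN, ACACA and SCD had 0.040, -0.052 and -0.039 without a call.

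Stress and death genes were lower in part. PMAIP1, which encodes the BCL2 antagonist NOXA, had 177, 182 and 186 CPM in SnxB libraries, against 381, 360.5 and 388 CPM in DMSO libraries, a log2 fold change of -1.05 ± 0.031 (SE, n = 3 each; edgeR adjusted p = 4.48e-47). BMF and BCL2L11, other BH3-only genes, had -0.50 and -0.21, and 3 of 14 tested BCL2 family genes were lower and 0 higher (2 higher with library totals alone), with BCL2L1 and MCL1 at 0.14 and 0.071, not called. The BCL2L11 call was lost without DMSO library 3 or SnxB library 3, in DESeq2 and with the spread of all 12 libraries. Among 20 tested p53 targets BBC3, AEN and CDKN1A were lower, at -0.46, -0.22 and -0.26, and MDM2, the standard target, had -0.014 without a call. Among 12 tested NRF2 targets GCLC and SLC7A11, of glutathione synthesis, were lower, at -0.31 and -0.57, and NQO1 had -0.078 without a call. The called shares were 21.4% for the BCL2 family, 15% for p53 targets and 16.7% for NRF2 targets, beside 5.35% of all tested genes. In each of these 3 lists DESeq2 called 1 gene and gave another, BMF, BBC3 or SLC7A11, no adjusted p. The CDKN1A call was lost without DMSO library 2 or SnxB library 2 or 3, in DESeq2 and with the spread of all 12 libraries. In the amino acid and endoplasmic reticulum stress list 6 of 24 were lower, with ATF5 at -0.29 and the amino acid carrier SLC7A5 at -0.22; 3 were lower without SnxB library 1 or 3 or in DESeq2, and 2 with library totals alone or with the spread of all 12 libraries. Of 17 tested clock genes BHLHE40, BHLHE41 and DBP were lower, at -0.39, -0.41 and -0.56, and DESeq2 gave none of the 3 an adjusted p. The call of BHLHE41 was lost without DMSO library 3 or SnxB library 3, and that of DBP without SnxB library 1 or 2.

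Some lists held few calls at rest, with 0% to 8% of members called beside 5.35% of all tested genes. In lists of this size such counts are near that share and say little about the pathways. An unadjusted p under 0.05 was found for 2407 of all 14293 tested genes. Of 21 tested NF-kB feedback genes 0 were called by edgeR or DESeq2, with 3 at an unadjusted p under 0.05, and NFKBIA, which encodes the main cytoplasmic inhibitor, had 0.17. Of 19 tested interferon and STAT genes IFIT3 alone was called, higher at 2.24 ± 0.437 CPM in SnxB libraries and 1.01 ± 0.486 CPM in DMSO libraries (SD, n = 3 each), and not without DMSO library 2 or 3 or SnxB library 1. Of 4 tested aryl hydrocarbon receptor targets 0 were called by edgeR, with 1 at an unadjusted p under 0.05, CYP1B1 at -0.34 (1 called without DMSO library 1 or SnxB library 1, with no low-count filter or with the replicate block). Of 25 tested homeobox genes outside the HOX clusters MSX1 was lower and MSX2 higher, at -0.34 and 0.23. Neither was called by DESeq2, and the MSX1 call was lost without SnxB library 2 and the MSX2 call without DMSO library 3.

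The cell cycle genes divided by phase. Of 36 tested mitosis and G2/M genes 21 (58.3%) were higher and 0 lower, with a median log2 fold change of 0.14, beside 1.48% of all genes called higher. AURKA, the kinase of spindle poles, had 170.1, 184 and 179.9 CPM in SnxB libraries, against 145, 141 and 142 CPM in DMSO libraries, a log2 fold change of 0.32 ± 0.036 (SE, n = 3 each; edgeR adjusted p = 2.28e-11). PSRC1, a spindle protein, had 54.5, 47.7 and 51.6 CPM in SnxB libraries, against 38.5, 39.0 and 38.1 CPM in DMSO libraries, a log2 fold change of 0.41 ± 0.061 (SE, n = 3 each; edgeR adjusted p = 3.14e-07). The spread of replicates was smaller than these shifts, though each is under 1.5-fold. CDC20, KIF23, KIF14 and DLGAP5, which act in chromosome separation and cell division, were higher by 0.17, 0.21, 0.26 and 0.20 on the log2 scale, and CDK1, KPNA2 and HMMR had 0.072, 0.061 and 0.038 without a call. Of 30 tested G1/S and replication genes 9 (30%) were lower and 0 higher, with a median of -0.0886, beside 3.87% of all genes called lower. RRM2, the ribonucleotide reductase subunit of S phase, had 272, 283 and 272 CPM in SnxB libraries, against 362, 342 and 363 CPM in DMSO libraries, a log2 fold change of -0.37 ± 0.029 (SE, n = 3 each; edgeR adjusted p = 1.69e-18). E2F3, CDC25A, UNG, CCND2 and PCNA had -0.29, -0.26, -0.21, -0.26 and -0.13, and MCM2, TYMS and CDC6 had 0.011, 0.016 and 0.0011 without a call. Fractions of cells in each phase were not measured. With the spread of all 12 libraries 9 mitotic genes were higher and 5 G1/S genes lower. The motif TTTGAA lay in 54.8% of the 31 mitotic list promoters matched and a CCAAT box in 80.6%, against 7.86% and 35.1% of all matched promoters. In the 23 matched promoters of the G1/S and DNA replication list these shares were 8.7% and 69.6%.

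**Figure D3:**
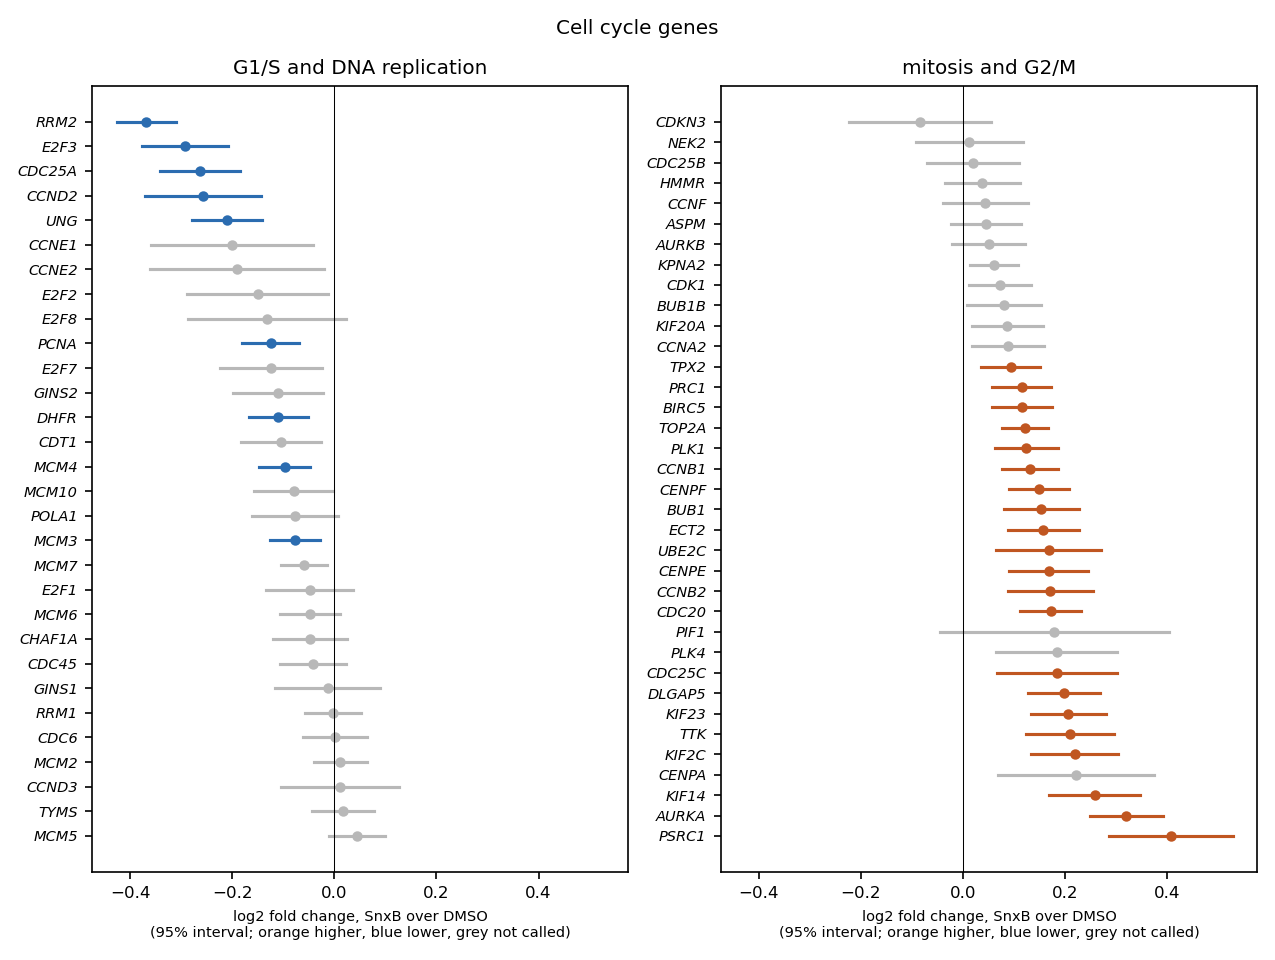
Log2 fold change of SnxB over DMSO with its 95% interval for the 30 G1/S and replication genes (left) and the 36 mitosis and G2/M genes (right), in blue where called lower, orange where called higher and grey where not called. The 9 called genes on the left are all lower and the 21 called genes on the right all higher.

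Histone and ribosomal protein genes were lower in part, mostly by small amounts. In these libraries 8 of 17 tested histone genes were lower and 0 higher, with H1F0, the linker histone of resting cells, at 149, 148 and 153 CPM in SnxB libraries, against 220.2, 204 and 210.5 CPM in DMSO libraries, a log2 fold change of -0.50 ± 0.035 (SE, n = 3 each; edgeR adjusted p = 1.97e-21). HIST2H2BE, HIST1H2AC, HIST3H2A, H2AFZ and H2AFX had -0.76, -0.52, -0.35, -0.17 and -0.16. The H2AFX call was lost without DMSO library 2, in DESeq2 and with the spread of all 12 libraries. Histone genes resemble each other, and the counting could split reads between copies. DESeq2 called 3 of them and gave 4 no adjusted p, and with the spread of all 12 libraries 5 were called. Of 78 tested cytosolic ribosomal protein genes 20 (25.6%) were lower and 0 higher, with RPL41, RPS23 and RPL23A at -0.16, -0.11 and -0.13. This count was 13, 11 and 13 without SnxB library 1, 2 and 3, 7 with library totals alone, 5 with the spread of all 12 libraries and 33 with 10, and reads of many pseudogenes may be shared with it. Among 18 tested snoRNA hosts SNHG15 alone was lower, at -0.20 (5.56% called, beside 5.35% of all tested genes). The call was lost without DMSO library 1 or SnxB library 1. It was also lost in DESeq2 and with the spread of all 12 libraries.

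Classes named by symbol, besides the ribosomal proteins above, varied in their share of calls. Called were 9.09% of HOX genes, 1.88% of clone-named, 0.37% of named antisense and 0% of LINC transcripts, beside 5.35% of all tested genes. Of 406 tested ZNF genes 7 were lower and 8 higher (3.69% in all, against 5.35% of all tested genes). ZNF711, an X-linked zinc finger gene, fell furthest in that class, with 67.0, 58.6 and 61.9 CPM in SnxB libraries, against 133, 141 and 138 CPM in DMSO libraries, a log2 fold change of -1.14 ± 0.045 (SE, n = 3 each; edgeR adjusted p = 1.14e-37), and ZNF517 and ZNF606 were higher at 0.68 and 0.45. These counts moved with the settings: with library totals alone 5 were lower and 16 higher, with the spread of all 12 libraries 4 and 2, with 10 libraries 7 and 10, with no low-count filter 6 and 2, and in DESeq2 2 and 0, where 3 of the 15 had no adjusted p. The 8 higher became 1 without SnxB library 1, 2 without SnxB library 2 or 3, 3 without DMSO library 1 or 2 and 6 without DMSO library 3. ZNF517 was not called without SnxB library 1, nor ZNF606 without DMSO library 1 or SnxB library 1 or 2. Of 81 tested LINC transcripts 0 were called by edgeR or DESeq2. An unadjusted p under 0.05 was found for 5 of them, beside 2407 of all 14293 tested genes. Of 270 named antisense transcripts THAP9-AS1 alone was called, at -0.33, a call lost without DMSO library 1 or SnxB library 2. Since strand use in the counting is unknown here, reads of a gene and its antisense partner cannot be told apart. Of 33 tested HOX genes HOXB2 was higher and HOXA13 and HOXD13 lower, at 0.26, -0.17 and -0.23; none of these 3 was called by DESeq2. The HOXB2 call was lost without DMSO library 1 or SnxB library 3, the HOXA13 call without DMSO library 3 or SnxB library 1 or 3, and the HOXD13 call without DMSO library 1 or 2 or SnxB library 1 or 3. Of 853 tested transcripts with clone names 12 were lower and 4 higher, and without DMSO library 2 or SnxB library 1 only 6 were lower. With library totals alone 7 were lower and 6 higher, with the spread of all 12 libraries 6 and 3, and in DESeq2 3 and 0, where 12 of the 16 had no adjusted p. The 4 higher became 2 without DMSO library 1 or SnxB library 1 or 3 and 1 without SnxB library 2. The largest rises of all were in low transcripts, AC025165.8 with 1.25, 1.33 and 1.06 CPM in SnxB libraries, against 0.609, 0.507 and 0.259 CPM in DMSO libraries, and ALOX12, a lipoxygenase, with 2.05, 1.52 and 2.86 CPM in SnxB libraries, against 1.13, 0.406 and 1.04 CPM in DMSO libraries. Both calls were lost without DMSO library 2 or SnxB library 3, as was that of AC025165.8 without DMSO library 3 or SnxB library 1 or 2. AC025165.8 rests on 11, 14 and 10 counts in SnxB and 7, 5 and 3 in DMSO libraries, the last at the detection floor. AC144652.1, with 7.76, 8.63 and 8.90 CPM in SnxB libraries, against 5.04, 4.66 and 4.23 CPM in DMSO libraries, a log2 fold change of 0.86 ± 0.15 (SE, n = 3 each; edgeR adjusted p = 1.29e-05), kept its call in every alternative that gave it an adjusted p, which DESeq2 did not. AC006128.2, CTD-2201E18.3, FBXL8, DGKA and UBE2QL1 were the other large rises, from 0.43 to 0.63, and each lost its call when at least 1 library was left out.

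**Figure D4:**
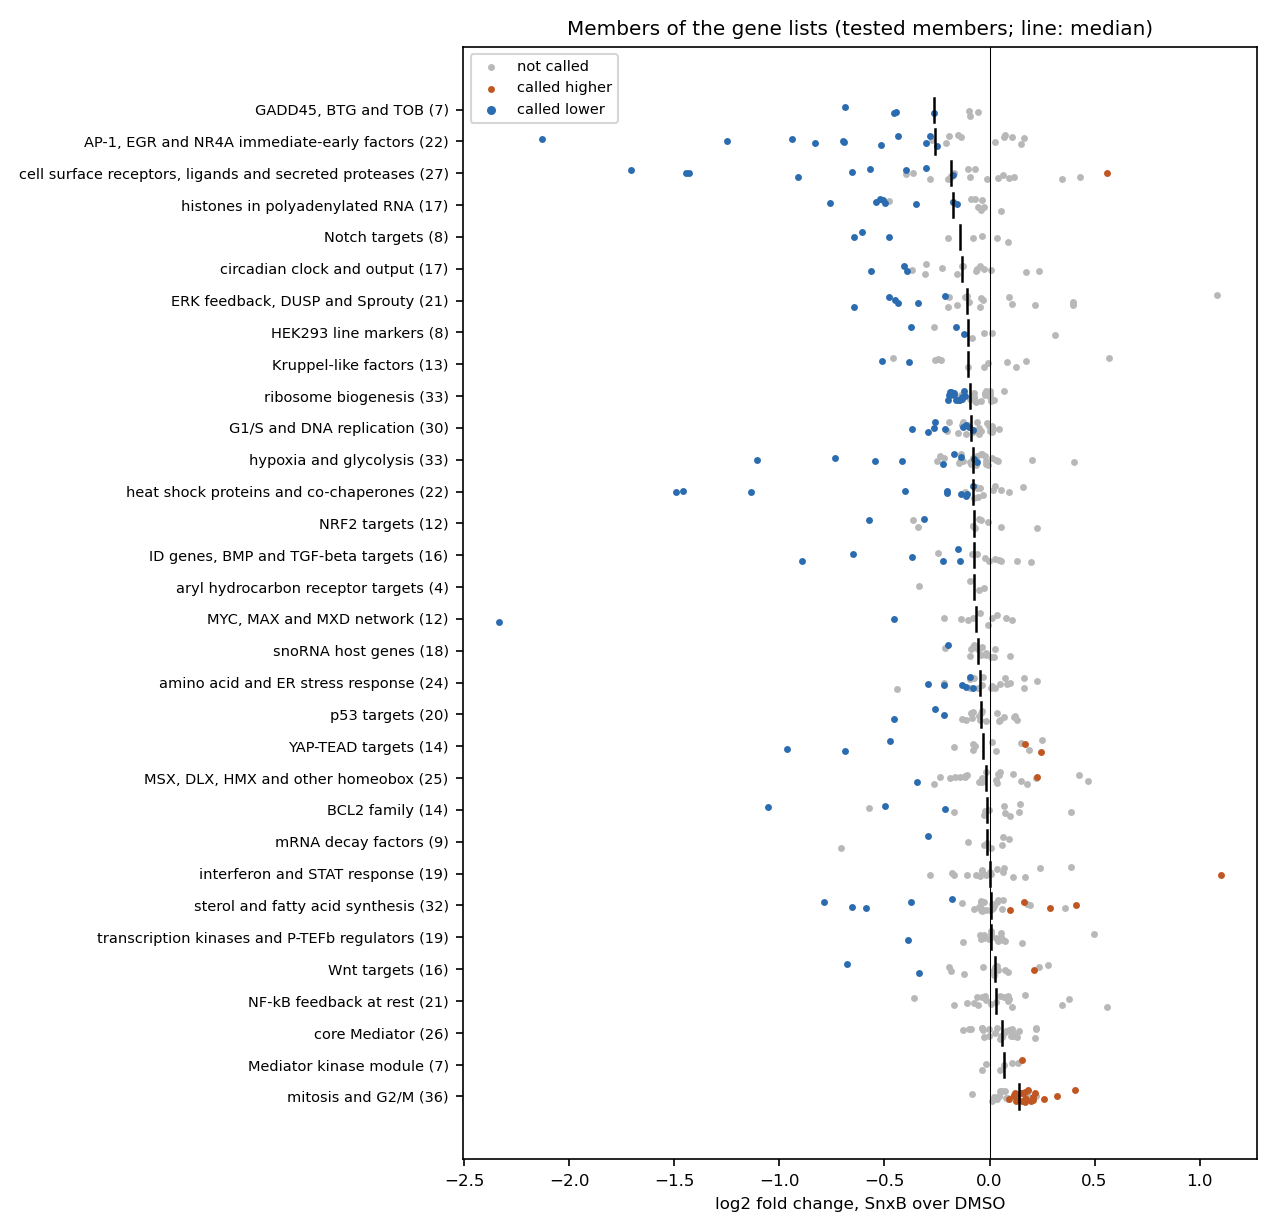
Log2 fold change of SnxB over DMSO (horizontal axis) for each tested member of the lists with at least 4 tested members (rows, number in brackets), in blue where called lower, orange where called higher and grey where not called, with the list median as a black line. The median is furthest above 0 for mitosis and G2/M, at 0.14, and below 0 for GADD45, BTG and TOB, at -0.265.

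The lower genes were short and had few exons. Their median span in GENCODE 29 was 18129 bp, against 35602 bp for the higher genes and 33086 bp for all tested genes, and the median number of exons in the longest transcript was 6, 12 and 8. A span under 10 kb was found for 31.6% of the lower, 12.9% of the higher and 20.1% of all genes. Both classes were more abundant than the rest, with median levels of 115 CPM for lower, 69.1 CPM for higher and 28.9 CPM for all genes, and abundant genes pass the test more easily. Of the tested genes 10677 (74.7%) matched a RefSeq promoter, and motifs were sought on both strands of the 250 bases before the start. TATAAA lay in 11.1% of the promoters of lower genes, 5.17% of those of higher genes and 4.97% of all, the E-box CACGTG in 13.2%, 8.05% and 9.04%, and TTTGAA in 9.32%, 17.2% and 7.86%. The RBPJ site lay in 23.0%, 21.3% and 19.2%, TGACATCA in 2.27%, 2.87% and 1.27%, a CCAAT box in 47.7%, 50% and 35.1%, and the carbohydrate response element, which can hold an E-box, in 1.36%, 0% and 0.731%. The AP-1 site TGANTCA lay in 3.41%, 1.72% and 3.54%, the cyclic AMP response element TGACGTCA in 2.5%, 3.45% and 3.0%, the TEAD site GGAATG in 7.05%, 10.3% and 9.07%, and the CArG box in 1.59%, 1.72% and 0.955%. A match is only a run of letters, and no test was made.

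The X chromosome had the highest share of lower genes among chromosomes with at least 100 tested genes, a pattern picked out after the values were seen. Of 469 tested X-linked genes 52 (11.1%) were lower and 0 higher, while the next chromosomes, 13 and 6, had 6.22% and 5.95% lower. The median log2 fold change of X-linked genes was -0.0427, and 65.0% of them lay below 0, against 48.4% on the other chromosomes. By library, the median log2 deviation from the gene mean was taken over 342 X-linked and 9468 other genes of at least 10 CPM. It was lower on X than elsewhere by 0.0293, 0.0255 and 0.0278 in SnxB libraries, and higher by 0.0225, 0.0303 and 0.0245 in DMSO libraries. The gene mean is over the same 6 libraries, so the SnxB and DMSO values mirror each other and restate the shift above. The 2 groups did not overlap, though with 3 against 3 libraries the smallest p of an exact permutation test is 0.1. With the GC and length correction the X median was -0.0391. DDX3X, an RNA helicase, had 618, 609 and 649 CPM in SnxB libraries, against 1018, 978 and 1032 CPM in DMSO libraries, a log2 fold change of -0.69 ± 0.024 (SE, n = 3 each; edgeR adjusted p = 5.02e-42). SAT1, a polyamine acetyltransferase, had 134, 129 and 129 CPM in SnxB libraries, against 210.4, 199.96 and 202 CPM in DMSO libraries, and KLHL15, a ubiquitin ligase adaptor, 171, 163 and 162 CPM in SnxB libraries, against 246, 237 and 266 CPM in DMSO libraries. These 3 genes are X-linked, as are IRS4, ZNF711 and AMOT above, and their groups were apart.

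**Figure D5:**
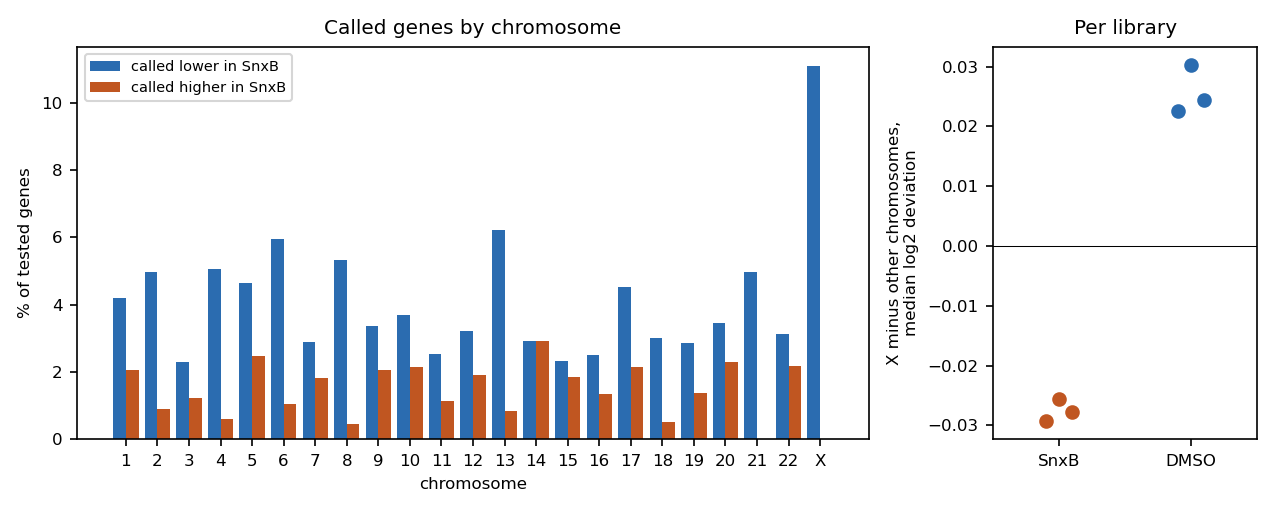
Left, percent of tested genes called lower (blue) and higher (orange) in SnxB by chromosome; X has 11.1% lower and 0% higher. Right, median log2 deviation of X-linked genes minus that of the other genes in each library, SnxB in orange left of DMSO in blue. The 3 SnxB libraries lie below 0 and the 3 DMSO libraries above 0. Deviations are from the mean of the 6 libraries, so the 2 groups mirror each other.

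The resting effect was then set beside that of Senexin B in TNFα-treated cells, which shares no library with it. Libraries 2 and 3 of TNF_SnxB stood apart, with Spearman correlations of -0.682 and -0.679 between the transcript GC content of a gene and its log2 deviation, against -0.116 to 0.448 in the other 10 libraries. Of the 553 genes lower at rest 429 (77.6%) were below 0 in TNF_SnxB against TNF, beside 49.9% of all tested genes. Without those 2 libraries 515 (93.1%) were below 0, and with a GC and length correction 514 (92.9%). Of the 211 higher at rest 148 (70.1%) were above 0, and 179 (84.8%) and 187 (88.6%) in the same alternatives. MYC, ARC, HSPA1A, ADAMTS1, IRS4 and JUN had log2 fold changes of -2.06, -2.21, -1.43, -1.31, -1.37 and -1.63 there. A test of the difference of the effects called 429 of 14822 genes (2.89%) and 73 of the 764 called at rest (9.55%), but this count was unstable: without TNF_SnxB libraries 2 and 3 it was 11 and 3, with the GC and length correction 35 and 10, and it ran from 3 to 4546 when 1 library was left out.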

How the data were processed

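RNA of HEK293 cells was taken with an RNeasy kit and made into TruSeq libraries, per the labels' protocols. The values deposited for the 12 libraries are unnormalized read counts by gene symbol, whole numbers, made with STAR 2.4, SAMtools 1.2 and featureCounts of Subread 1.4.6 on hg38 (GRCh38), per the submitters' processing notes; their annotation and strand setting were not given in the sources used here. How reads of near-identical copies and pseudogenes were shared is not known.

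From these counts, genes were filtered with filterByExpr (14293 of 56634 left; those left out held at most 0.224% of a library's counts), scaled by TMM and tested with the robust quasi-likelihood test of edgeR 4.0.16 (R 4.3.3), two-sided, on the 3 SnxB and 3 DMSO libraries, with Benjamini-Hochberg adjustment over all tested genes. Groups came from the labels. Effects with TNFα and the difference of effects used all 12 libraries (14822 genes). In simulated data for SnxB against DMSO (14273 genes, 200 changed) 95% of 1.5-fold and 99% of 2-fold changes were called, with 7 false calls. The simulation gave every gene the same spread, wider than the 1.96% of the 6 libraries, and changed only well-counted genes. As many genes were raised as lowered, so the simulation cannot speak to the balance of lower and higher calls. It does not cover changes under 1.5-fold, which make up most calls. Chi-square per degree of freedom between replicates was 1.106 to 1.6, so no replicate held the same counts as another. The check cannot tell separate cultures from repeat libraries of the same RNA. Alternatives were DESeq2 1.42.0, other scalings, filters and sets of libraries, a replicate block, a fold of 1.2, and offsets for GC content and length from GENCODE 29 (91.8% of genes matched by symbol).

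The comparison, the 35 lists and 6 symbol classes were chosen with earlier results of these data known, and are described by counts and medians with no test of a list. Named genes were the 15 largest falls and 12 largest rises among called genes of at least 1 CPM without overlap, up to 6 called members per list and 3 per class by adjusted p, the kinase module, and the 5 called genes with the smallest p for the difference of effects. FOS, JUNB, ARRDC4, DDX3X, SAT1, KLHL15 and the uncalled members given for contrast were named after their values were seen. Figures used Python 3.11.15 and matplotlib 3.10.9.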

Additional observations from a re-analysis of the deposited data

Results flagged for a closer look

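Among the named genes, 16 had an effect of Senexin B that differed between TNFα-treated and resting cells at an adjusted p under 0.05 in edgeR's test of the difference itself over all 12 libraries. Each log2 fold change below is that of TNF_SnxB over TNF, then that of SnxB over DMSO, and the difference is the first minus the second, from 3 libraries in each of 4 groups. The values with TNFα and the difference come from the fit over 12 libraries and those at rest from the fit over 6. JUN, the AP-1 subunit, fell further with TNFα: -1.63 with TNFα and -1.25 at rest, a difference of -0.378 ± 0.065 (SE; edgeR adjusted p = 0.0103). JUND, IER3, ID3 and H2AFX also fell further with TNFα, with -0.95 and -0.52 (difference -0.439), -1.35 and -0.69 (difference -0.659), -0.45 and -0.14 (difference -0.311) and -0.54 and -0.16 (difference -0.386). ZNF517 and C20orf24 were higher at rest and below 0 with TNFα, with -0.27 and 0.68 (difference -0.955) and -0.37 and 0.26 (difference -0.627). PMAIP1 and IDI1 were lower in both settings but less so with TNFα, with -0.71 and -1.05 (difference 0.345) and -0.32 and -0.59 (difference 0.263). The other genes were lower at rest and near or above 0 with TNFα: RND3 had -0.044 and -0.52 (difference 0.472), SLC7A11 0.031 and -0.57 (difference 0.602), KLF9 0.0051 and -0.38 (difference 0.386), HOXA13 0.13 and -0.17 (difference 0.294), NOP58 0.038 and -0.19 (difference 0.226), DDX21 0.023 and -0.16 (difference 0.179) and the lactate dehydrogenase gene LDHA 0.025 and -0.17 (difference 0.192). Libraries 2 and 3 of TNF_SnxB stood apart with GC content, and without them all 16 differences were smaller in size. They were then -0.271 for JUN, 0.184 for LDHA, 0.158 for PMAIP1, -0.276 for C20orf24, 0.106 for NOP58 and 0.0832 for DDX21. That fit keeps only TNF_SnxB library 1, so calls from it are not given here. All 16 lost the called difference when DMSO library 3, TNF library 1 or TNF_SnxB library 3 was left out alone. In those fits 0 genes called at rest had a called difference. Genes not chosen by this test were named by their values at rest, from libraries that the difference reuses.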

How the results depend on the processing

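The 764 calls between SnxB and DMSO libraries (553 lower, 211 higher) had no change of sign in any alternative. Counts moved beyond 1.5 times in these: library totals alone gave 429 higher and 362 lower, DESeq2 354 in all (62 higher, 292 lower; 5819 genes, 80 of the 764 among them, had no adjusted p), no low-count filter 135 higher, the spread of all 12 libraries 303 (52 higher, 251 lower), and a test against a fold of 1.2 gave 72 (1 higher, 71 lower). Leaving out 1 library gave 472 to 712 calls, 110 to 184 higher and 362 to 534 lower, with the fewest without SnxB replicate 3. Size factors by median of ratios gave 740, a filter at 1 CPM 756, 10 libraries 878 and the correction for GC content and length 864. Same-numbered SnxB and DMSO libraries did not deviate together (r = -0.0555, -0.0515 and -0.0870). Replicates lay so close together that these values cannot exclude a pairing by number. The replicate block gave 746 calls (202 higher, 544 lower) and, for the difference of effects, 735 in place of 429. That difference was called for 11 genes, 3 of them called at rest, without TNF_SnxB libraries 2 and 3, for 35 and 10 with the GC and length correction, and for 3 to 4546 and 0 to 402 when 1 library was left out, with the most without TNF_SnxB replicate 1. Of 150 named genes 113 had an adjusted p in all 16 alternatives, and 38 of these kept their call or lack of one in each; DESeq2 gave the others no adjusted p, and those are not counted as kept or lost there. Over the alternatives with an adjusted p, 96 of the 150 lost a call in at least 1 (each of them under the fold of 1.2) and MED13L gained one. Losses given above for single genes name mainly the libraries left out. With the spread of all 12 libraries HSPD1, PGK1, PCNA, BHLHE41, IFIT3, MSX1, THAP9-AS1, ALOX12, HOXA13, HOXB2 and HOXD13, among others, also lost their calls. CDK19, never called, had -0.014, but 0.014 with library totals alone and -0.0667 to 0.0193 when 1 library was left out, above 0 without DMSO replicate 2, SnxB replicate 1 or SnxB replicate 3 (0.0193, 0.00937 and 0.0117). Without TNF_SnxB libraries 2 and 3 the 1 left is assumed to vary like the other groups. At 3 counts a library, genes under about 0.345 CPM could not be compared.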
